A study of Mus musculus with 8 samples.

Results

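The nuclear genes whose products copy and transcribe the mitochondrial genome and process and clear its RNA were examined in RNA seq of the mouse cochlea. The genes were chosen from a list of 43 symbols for factors of mitochondrial DNA (mtDNA) replication, nucleotide supply, transcription, RNA granules and RNA decay. Of these, 39 were listed in the count tables under that symbol, and 3 were listed under an older one (Peo1 for Twnk, Ftsj2 for Mrm2 and Rnmtl1 for Mrm3). The remaining symbol, Suv3, is another name of Supv3l1 and was not listed, which left 42 genes of the 47628 entries that name a gene. All 42 passed the filter on low counts, with 64 to 1942 counts per gene and mouse, and 19366 genes passed it in all. The cochleae came from 4 WT mice (animals 4, 5, 6 and 8) and from 4 Opa1+/- littermates (animals 2 and 7, and 2 with 3-digit numbers that are called animals A and B here in numerical order), all untreated and, by the methods and results of the study, 21 days old, although its discussion places the Opa1 transcript level at 1 month. Opa1+/- mice carry 1 knock-in allele with the recurrent human OPA1 delTTAG deletion and 1 WT allele, in every cell and on the mixed C57BL/6J × 129 Sv/Pas background that both groups share. RNA was taken from the whole isolated cochlea, so fewer cells of a type and less RNA per cell cannot be told apart.

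Mitochondria hold a small circular genome that encodes subunits of the respiratory chain together with the rRNAs and tRNAs needed to translate them, while every protein that copies or reads this genome is imported from the cytosol. POLG and its accessory subunit copy mtDNA behind the helicase Twinkle, and POLRMT with TFAM and TFB2M transcribes both strands as long precursors. These precursors are cut, modified and stored in RNA granules, stabilised by the LRPPRC-SLIRP complex and degraded by the SUV3-PNPase degradosome. OPA1, the inner membrane GTPase, is known for its role in cristae shape and in the upkeep of mtDNA.

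Total counts on named genes ranged from 15978051 to 20828030 per mouse, and 11.7% to 16.1% of them fell on mitochondrially encoded genes. Levels are given as CPM, counts scaled to a common library size with TMM factors, and the values of single mice are given below in the order of the animal numbers above. Opa1 was measured first as a check of the labels. The WT mice measured 119, 126, 112 and 122 CPM and the Opa1+/- mice 63.5, 68.4, 60.4 and 70.0 CPM, so that each Opa1+/- value lay below each WT value. The log2 fold change of Opa1+/- against WT was -0.87 ± 0.068 (SE), a loss that passed edgeR's quasi-likelihood test with a Benjamini-Hochberg adjusted p of 0.00515. Over all alternatives the fold change stayed between -0.91 and -0.83, but the adjusted p was 0.0704 without Opa1+/- animal 2 and 0.260 without animals A and B.

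No transcript among the 42 factors changed with the Opa1 genotype at the adjusted threshold of 0.05, a threshold that 0.0258% of all genes tested passed. The smallest adjusted p among them was 0.722 (edgeR's quasi-likelihood test). A single member, Grsf1, had an unadjusted p under 0.05, against 6.72% of all genes, and no member had WT and Opa1+/- values that did not overlap, against 4.31% of all genes (2.33% with every Opa1+/- value lower and 1.98% with every value higher). The log2 fold changes ran from -0.20 for Fastkd5 to 0.16 for Mrm1, with 25 of the 42 below 0 and 17 above. Their median was -0.043, beside 0.00040 over all genes tested, of which 49.9% were below 0. Without WT animal 5 the median was -0.014, with 22 of 42 below 0, and with single other mice left out it was as low as -0.058.

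The precision behind these values was high for most members. The SE of the log2 fold change was between 0.0553 and 0.283, with a median of 0.0868, and 25 of 42 fold changes lay within 0.1 of 0 on the log2 scale. In 41 of 42 members the 95% interval of the fold change stayed within a 1.5-fold change in either direction, against 71% of all genes, the exception being Tymp. In 22 of 42 it stayed within a 1.25-fold change, against 39.5% of all genes. Each member had 64 counts or more per mouse, whereas all genes needed a mean over 10, so the shares are unmatched for level. All 42 intervals lay above the interval of Opa1, which ran from -1.02 to -0.72. Changes smaller than these intervals were not detectable with 4 mice per group.

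**Figure D1:**
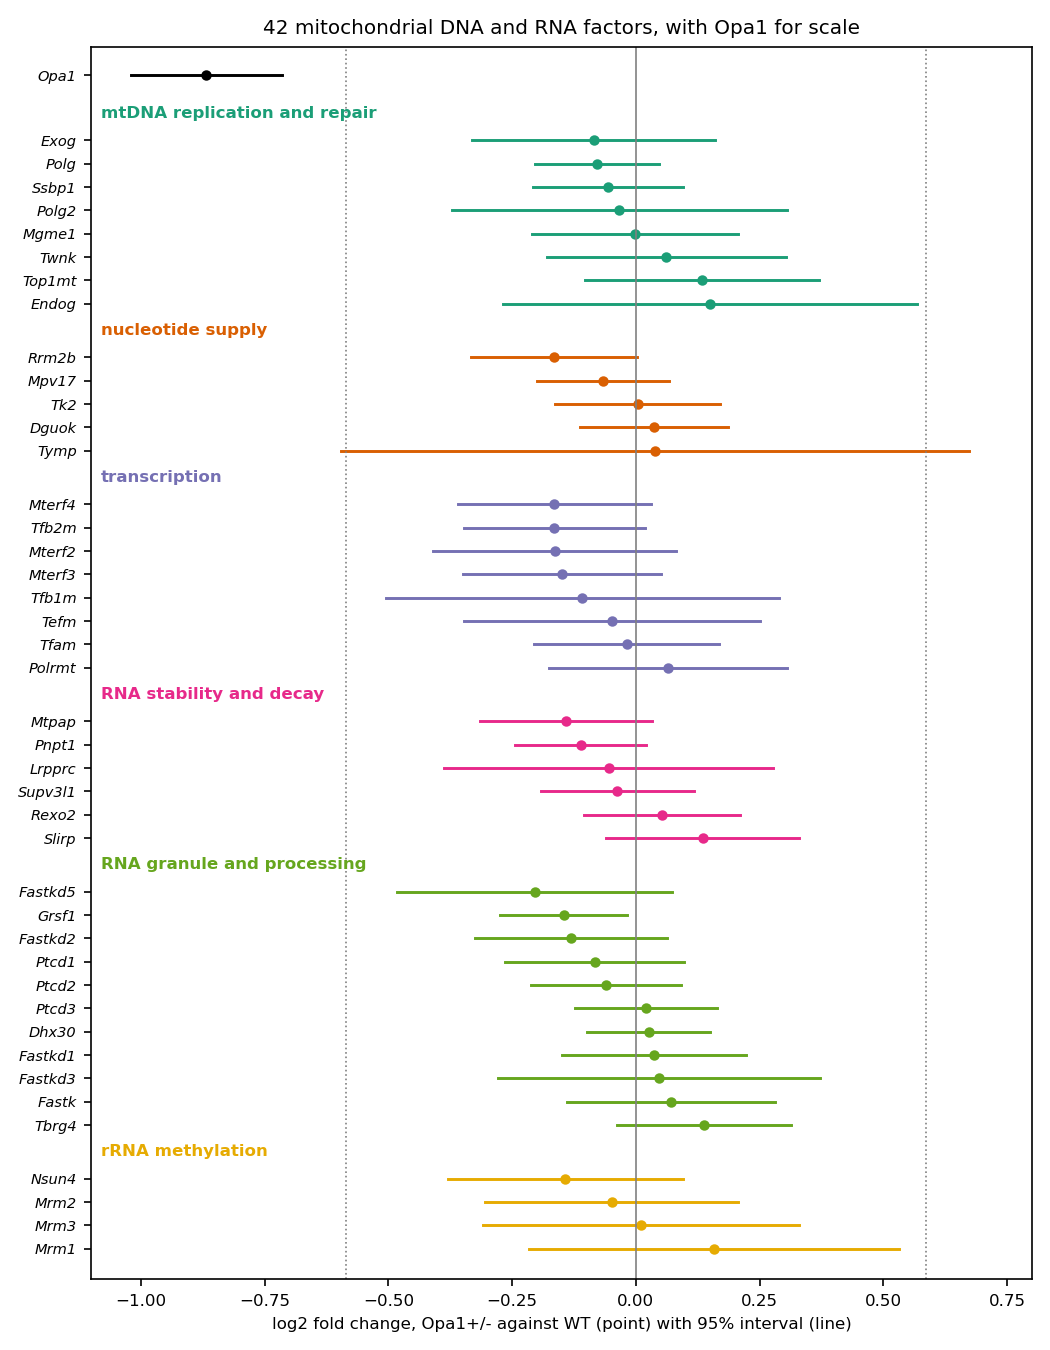
Log2 fold change of Opa1+/- against WT for the 42 factors (points) with 95% intervals (lines), grouped by role and ordered within each role, with Opa1 above them for scale and dotted lines at a 1.5-fold change in either direction. Only the interval of Grsf1 leaves out 0, only that of Tymp crosses the dotted lines, and every interval lies to the right of that of Opa1.

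The promoters of these genes were searched for motifs that had no part in their selection, and some of the promoters held them. Genes of mitochondrial function are known targets of the ETS family factor GABP (also called NRF2, and unrelated to the redox factor Nrf2) and of NRF1. RefSeq promoter windows (GRCm38.p6), from 250 bases before to 50 after each start, were present for 38 of the 42 members and were not found for Mterf3, Mtpap, Rrm2b and Top1mt. The ETS motif CCGGAAG, or CTTCCGG on the other strand, was found in the windows of 18 of these 38 genes (47.4%), compared with 17.2% of the 12116 tested genes that have a window and 8.86% of all 32851 windows. The NRF1 motif, GCGCA and GCGC with 1 base of any kind after the A, or its complement on the other strand, was found in 5 (13.2%), compared with 9.96% of tested genes and 4.60% of all windows. The YY1 motif AAGATGGC, or GCCATCTT, was found in 6 (15.8%), compared with 4.58% of tested genes and 2.75% of all windows. A match is a match of letters and was not tested as a binding site. Windows around a motif that lie outside annotated exons are shown for the RNA polymerase, the helicase, the accessory polymerase subunit and 2 RNA factors, with the ETS motif in capitals, and for Exog, the member with the lowest level per length, with the NRF1 motif in capitals.
Polrmt: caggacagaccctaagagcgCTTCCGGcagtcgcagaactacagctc
Twnk: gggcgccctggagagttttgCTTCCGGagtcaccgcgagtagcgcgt
Polg2: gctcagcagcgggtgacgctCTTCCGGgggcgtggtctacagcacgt
Tbrg4: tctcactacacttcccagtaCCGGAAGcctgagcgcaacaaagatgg
Ptcd2: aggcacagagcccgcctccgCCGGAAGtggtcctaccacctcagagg
Exog: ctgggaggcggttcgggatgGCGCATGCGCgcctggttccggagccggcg
They lie at chr10:79746598-79746644 (minus strand, Polrmt), chr19:45006472-45006518 (plus, Twnk), chr11:106779540-106779586 (minus, Polg2), chr11:6626146-6626192 (minus, Tbrg4), chr13:99344718-99344764 (minus, Ptcd2) and chr9:119444865-119444914 (plus, Exog), each written in the direction of its gene. The 18 members with the ETS motif had a median log2 fold change of -0.026, with 10 of them below 0, and the 20 without it had a median of -0.046, with 12 below 0.

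The transcripts differed in level over a wide range. Dividing CPM by the length of the principal transcript gave 1.74 to 59.1 CPM per kb, a 33.9-fold range with a median of 6.62. Rexo2, an exonuclease that removes very short RNAs, was highest with 58.0 ± 3.75 CPM per kb in WT and 60.2 ± 4.18 in Opa1+/- mice (SD, n = 4). Mpv17, an inner membrane protein needed for the mitochondrial nucleotide pool, followed with 53.9 ± 3.72 and 51.5 ± 1.03. Grsf1, the G-rich sequence binding protein of the RNA granules, came next with 33.6 ± 1.64 and 30.4 ± 0.996 CPM per kb. The lowest were Exog with 1.79 ± 0.160 and 1.69 ± 0.0974, Fastkd3 with 2.63 ± 0.462 and 2.72 ± 0.235, and Mrm1 with 2.56 ± 0.562 and 2.86 ± 0.284, and the last 2 did not differ beyond their spread. Per coding length, Slirp ranked first in place of Rexo2, and Exog ranked 34th instead of last, so the order depends on the length used. Exons of Gm29609 on the same strand overlap 47.5% of Mpv17, so its counts and rank are uncertain. The principal transcript of Slirp is 2701 bases long, and 97.5% of it is overlapped by exons of the antisense neighbours Alkbh1 and Snw1, of which Snw1 stood at 79.0 CPM, so counts of Slirp are uncertain.

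**Figure D2:**
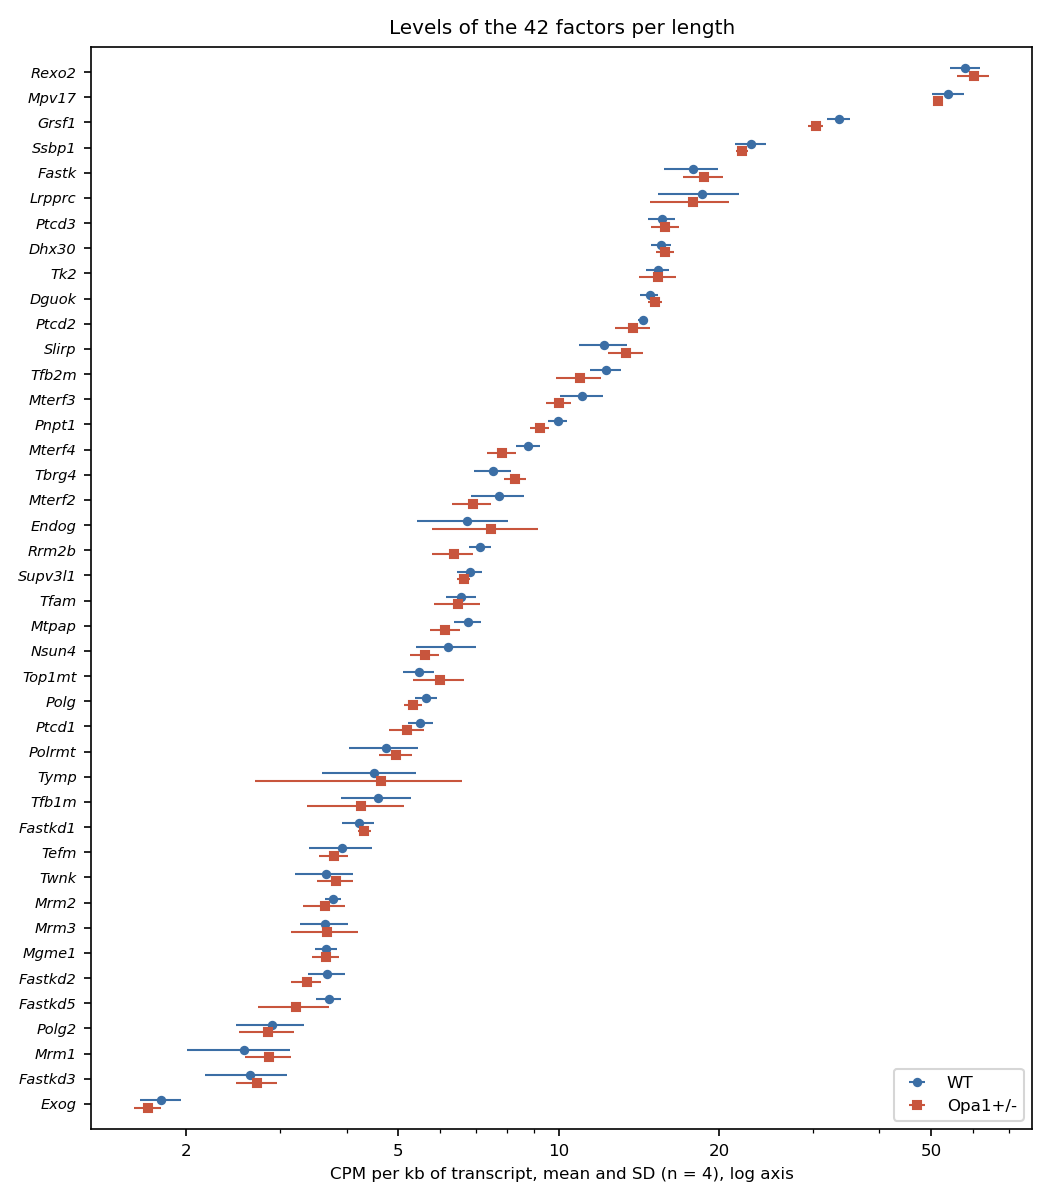
Level of each of the 42 factors in CPM per kb of principal transcript on a log axis, as mean and SD of 4 WT (circles) and 4 Opa1+/- mice (squares), ordered by the mean over all mice. The levels run from 1.74 CPM per kb for Exog to 59.1 for Rexo2, and the markers of the groups lie close together for nearly every gene.

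The 8 factors of mtDNA replication and repair had a median log2 fold change of -0.018, with 3 above and 5 below 0 and none past the unadjusted threshold, which 3.51% of all genes passed upwards and 3.22% downwards. Over all alternatives the median ran from -0.047 (total counts) to 0.036 (without WT animal 5, with 3 of 8 below 0), and it was also above 0 without Opa1+/- animal 7 or A. Polg, which encodes the catalytic subunit of the mtDNA polymerase, measured 42.8, 42.1, 46.7 and 45.2 CPM in WT mice and 42.3, 41.96, 43.5 and 39.6 CPM in Opa1+/- mice. The groups overlapped, and the log2 fold change was -0.079 (95% interval -0.20 to 0.047) and ran from -0.11 (total counts) to -0.044 (surrogate variable) over the alternatives. Twnk, the replicative helicase, measured 12.4, 12.2, 15.1 and 11.4 CPM in WT and 13.7, 12.2, 14.6 and 12.7 CPM in Opa1+/- mice. Here WT animal 6 was the highest of all 8, and the log2 fold change was 0.061 (-0.18 to 0.30), with 0.15 without that mouse and 0.0074 without WT animal 8. The lowest fold change of the group belonged to Exog, a nuclease that trims primers and repairs mtDNA ends, with 6.62, 7.76, 6.75 and 6.36 CPM in WT and 6.92, 6.02, 6.44 and 6.57 CPM in Opa1+/- mice (log2 fold change -0.085, -0.33 to 0.16, with -0.13 without WT animal 8 and -0.021 without WT animal 5). The highest belonged to Endog, a nuclease of the intermembrane space, with 6.28, 7.71, 5.80 and 8.81 CPM in WT and 10.6, 7.22, 7.43 and 6.57 CPM in Opa1+/- mice (0.15, -0.27 to 0.57). The single value of 10.6 CPM in animal 2 set this direction, since without that mouse the log2 fold change was -0.016, and without animals A and B it was 0.31. Antisense exons of Spout1 overlap 35.7% of Endog. The others, the single-strand binding protein Ssbp1, the accessory polymerase subunit Polg2, the exonuclease Mgme1 and the topoisomerase Top1mt, had log2 fold changes between -0.056 and 0.13. Ssbp1 has a near-identical copy, Gm12115 (97.8% over 447 bases, at 0.996 CPM).

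Nucleotide supply was represented by 5 genes with a median log2 fold change of 0.0039, with 3 above and 2 below 0, and its sign was not stable. Over the alternatives the median ran from -0.060 (without animal A) to 0.031 (without animals A and B), and it was -0.0018 with DESeq2 size factors, -0.022 with total counts and -0.017 with voom. Rrm2b, the small ribonucleotide reductase subunit that serves mtDNA in cells that do not divide, measured 32.5, 34.1, 30.4 and 33.0 CPM in WT and 30.3, 31.7, 28.2 and 25.7 CPM in Opa1+/- mice. The lowest 3 of the 8 values were from Opa1+/- mice, while animal 7 lay among the WT mice. Its log2 fold change of -0.17 (-0.33 to 0.0014, with -0.21 without animal 7 and -0.070 without animals A and B) had an unadjusted p of 0.0516 and an adjusted p of 0.741 in edgeR's quasi-likelihood test. A copy of Rrm2b, Gm8616, matches it in 96.1% of 1051 bases. Tymp, the thymidine phosphorylase that breaks down thymidine, was the least precise member, at 8.50, 8.94, 7.47 and 11.8 CPM in WT and 13.2, 6.17, 12.5 and 5.87 CPM in Opa1+/- mice. The Opa1+/- values fell at both ends of the range, with the WT values between them, and the interval of the log2 fold change was accordingly wide (0.039, -0.60 to 0.67, with -0.17 without animal 2 and 0.20 without animal B). Exons of Sco2 on the same strand and of Ncaph2 on the other overlap 42.02% of Tymp. Mpv17 measured 43.8, 42.9, 49.9 and 45.9 CPM in WT and 42.5, 44.4, 43.3 and 44.0 CPM in Opa1+/- mice (log2 fold change -0.067, -0.20 to 0.066, with -0.096 without WT animal 5 and -0.021 without WT animal 6), with 47.5% of its transcript overlapped by Gm29609. The 2 mitochondrial deoxynucleoside kinases, Tk2 and Dguok, had log2 fold changes of 0.0039 and 0.036.

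Transcription factors and terminator family proteins showed the most one-sided fold changes, with 7 of 8 below 0 and a median of -0.13. Of all genes tested 49.9% were below 0, and none of the 8 passed the unadjusted threshold. The 8 include Tfb1m and Mterf4, which serve rRNA methylation. The count below 0 was 6 or 7 of 8 under each alternative setting and scaling. Mterf4, which brings the rRNA methyltransferase Nsun4 to the mitochondrial ribosome, had the lowest value, with 12.6, 12.2, 11.1 and 12.1 CPM in WT and 10.9, 9.72, 11.3 and 10.9 CPM in Opa1+/- mice. WT animal 6 lay below Opa1+/- animal A, which was the only point of overlap, and the log2 fold change was -0.16 (-0.36 to 0.030, adjusted p of 0.761 in edgeR's quasi-likelihood test). Tfb2m, which melts the promoter for the polymerase, Mterf2 and Mterf3 had log2 fold changes of -0.16, -0.16 and -0.15 with intervals that included 0. Antisense exons of Tmem263 overlap 25.4% of Mterf2, so its counts are uncertain. Tfb2m has a near-identical pseudogene, Gm1818, which matches it in 99.3% of 1187 bases and itself stood at 19.0 CPM beside 28.4 CPM for Tfb2m, so reads may be split between them.

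Tfam, the packaging protein and transcription activator of mtDNA, measured 25.7, 29.3, 28.3 and 26.0 CPM in WT mice. The Opa1+/- values were 24.7, 24.6, 29.3 and 29.4 CPM. The lowest and the highest of the 8 values both came from Opa1+/- mice, with animals 2 and 7 low and animals A and B high, and the log2 fold change was -0.019 (-0.21 to 0.17), with -0.15 without animals A and B and 0.024 without animal 7. Polrmt, the mitochondrial RNA polymerase whose promoter window is printed above, was the only gene of the group above 0, at 16.8, 16.2, 21.7 and 16.5 CPM in WT and 19.4, 17.6, 19.99 and 17.4 CPM in Opa1+/- mice. The log2 fold change of 0.065 (-0.18 to 0.31) was measured with WT animal 6 above all others and the other 3 WT mice below every Opa1+/- mouse. It was 0.17 without WT animal 6 and 0.021 without WT animal 5. The remaining Tfb1m, an rRNA dimethyltransferase, and Tefm, the elongation factor, had log2 fold changes of -0.11 and -0.049.

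**Figure D3:**
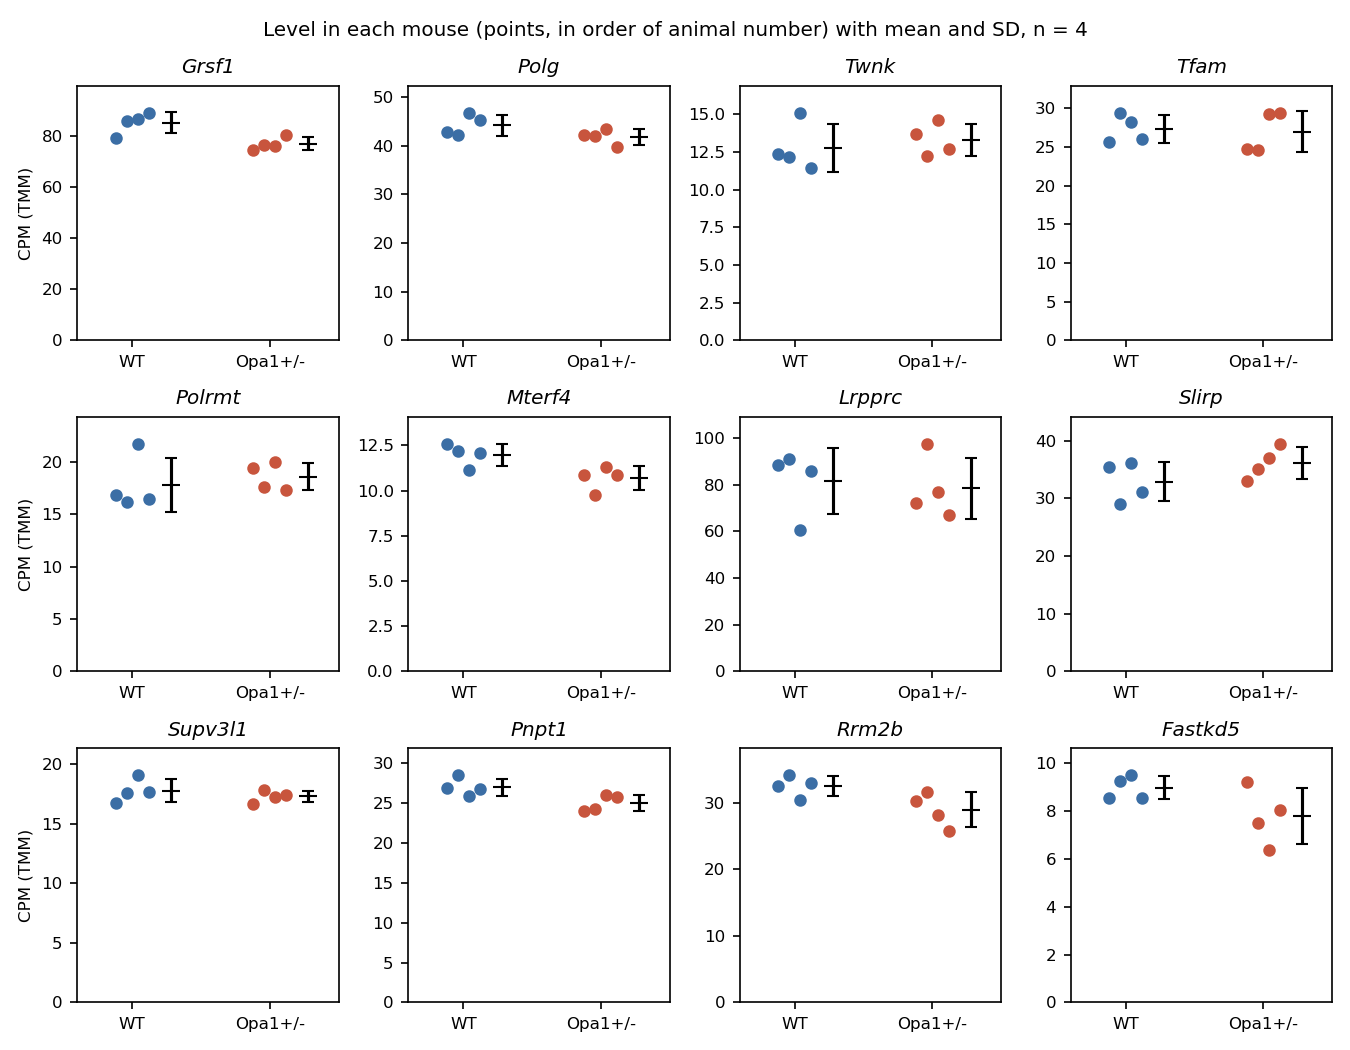
Level of 12 of the named factors in each mouse (points, left to right in the order of animal numbers, in CPM after TMM scaling) with mean and SD of 4 WT and 4 Opa1+/- mice, each axis starting at 0. In all 12 panels the ranges of the genotypes overlap. For Grsf1 the lowest WT mouse at 79.3 CPM lies below the highest Opa1+/- mouse at 80.7 CPM, and for Pnpt1 the lowest WT mouse at 25.9 CPM lies just below the highest Opa1+/- mouse at 26.0 CPM.

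The 6 factors of RNA stability and decay had a median log2 fold change of -0.046, with 2 above and 4 below 0, and a median from -0.075 (without animal 7) to -0.016 (without animal 2) with 1 mouse left out. It was -0.021 without WT animal 5 and -0.018 without animal B, with 3 of 6 below 0 in each. Lrpprc, which coats mitochondrial mRNAs and keeps them stable, varied widely between mice, at 88.5, 90.9, 60.6 and 86.0 CPM in WT and 72.3, 97.3, 76.9 and 67.2 CPM in Opa1+/- mice. The lowest value came from WT animal 6 and the highest from Opa1+/- animal 7, and the log2 fold change was -0.055 (-0.39 to 0.28). Its partner Slirp measured 35.4, 29.0, 36.2 and 31.0 CPM in WT and 33.0, 35.0, 37.1 and 39.4 CPM in Opa1+/- mice, the highest fold change of the group at 0.13 (-0.060 to 0.33, adjusted p of 0.790 in edgeR's quasi-likelihood test). The fold change of Lrpprc turned positive without WT animal 5 (0.0016), without animal B (0.0086) and without animals A and B (0.058), whereas that of Slirp stayed between 0.049 and 0.18.

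The degradosome pair gave narrow intervals. Supv3l1, its helicase, measured 16.7, 17.5, 19.1 and 17.7 CPM in WT and 16.7, 17.8, 17.2 and 17.4 CPM in Opa1+/- mice, with a log2 fold change of -0.037 (-0.19 to 0.12), which was -0.0017 without WT animal 6, -0.018 without animal 2 and -0.063 without WT animal 4. Pnpt1, its exoribonuclease, measured 26.8, 28.5, 25.9 and 26.7 CPM in WT and 23.9, 24.3, 26.0 and 25.7 CPM in Opa1+/- mice. The Opa1+/- values were in the lower part of the range, with animal A just above WT animal 6, and the log2 fold change was -0.11 (-0.24 to 0.021, adjusted p of 0.762 in edgeR's quasi-likelihood test). Mtpap, the poly(A) polymerase of mitochondria, had the lowest fold change of the group, at 16.6, 19.1, 17.9 and 18.1 CPM in WT and 15.7, 16.5, 15.2 and 17.6 CPM in Opa1+/- mice (log2 fold change -0.14, -0.32 to 0.032). Rexo2 measured 64.4, 64.7, 56.4 and 64.2 CPM in WT and 65.6, 59.2, 64.2 and 70.1 CPM in Opa1+/- mice (0.053, -0.11 to 0.21), again with WT animal 6 the lowest, and the fold change ran from -0.0018 without animals A and B to 0.094 without animal 7.

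The 11 genes of RNA granules and RNA processing had a median log2 fold change of 0.020, with 6 above and 5 below 0. Its sign depended on single mice and on the scaling and test, since the median was below 0 without any 1 of the WT mice (-0.033 to -0.0040) and without animal B (-0.027), with 6 of 11 below 0 in each, and with total counts (-0.0081), voom (-0.0013), the surrogate variable (-0.019) and animals A and B left out (-0.043). Grsf1, which binds G-rich RNA in the granules, was the member with the smallest p of all 42. It measured 79.3, 85.8, 86.9 and 89.0 CPM in WT (85.3 ± 4.17, SD, n = 4) and 74.8, 76.5, 76.2 and 80.7 CPM in Opa1+/- mice (77.1 ± 2.53). The groups overlapped by 1 mouse on each side, since WT animal 4 lay below Opa1+/- animal B. The difference of Opa1+/- from WT was -9.64% (95% interval -17.3% to -1.30%), a log2 fold change of -0.15 with an unadjusted p of 0.0287 and an adjusted p of 0.722 in edgeR's quasi-likelihood test, so that it did not pass the correction over all genes tested. Without 1 mouse the unadjusted p ranged from 0.0118 (without WT animal 4) to 0.0834 (without Opa1+/- animal 2), and it exceeded 0.05 without WT animal 5 or 8 and without Opa1+/- animal 2, 7 or A.

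Within the FASTK family of RNA processing proteins the fold changes had both signs. Fastkd5, which acts on transcripts that are not flanked by tRNAs, had the lowest log2 fold change of all members at -0.20 (-0.48 to 0.074), from 8.56, 9.28, 9.50 and 8.57 CPM in WT and 9.22, 7.52, 6.37 and 8.04 CPM in Opa1+/- mice. Animal 2 lay inside the WT range and the other 3 Opa1+/- mice below it. The fold change was -0.29 without animal 2, where it had an unadjusted p of 0.0408, -0.12 without animal A and -0.10 without animals A and B. Exons of Ubox5 on the same strand overlap 73.4% of Fastkd5, so its counts are uncertain. Tbrg4 (also called Fastkd4), whose promoter window is printed above, had the highest of the family, at 16.8, 18.9, 17.6 and 15.7 CPM in WT and 18.2, 20.001, 18.3 and 19.5 CPM in Opa1+/- mice (0.14, -0.039 to 0.31, with 0.090 without WT animal 8 and 0.19 without WT animal 5). Fastkd3 measured 7.71, 5.66, 5.26 and 6.85 CPM in WT and 6.03, 6.17, 7.18 and 6.96 CPM in Opa1+/- mice (0.046, -0.28 to 0.37), all Opa1+/- values lying within the WT range. Fastk, Fastkd1 and Fastkd2 had log2 fold changes of 0.071, 0.036 and -0.13. The granule helicase Dhx30 (0.026, -0.098 to 0.15) and the pentatricopeptide proteins Ptcd1, Ptcd2 and Ptcd3 (-0.083, -0.060 and 0.020) were among the more precisely measured genes, with intervals within -0.26 and 0.16.

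The 4 methyltransferases of mitochondrial rRNA had fold changes of both signs and a median of -0.019, which ran from -0.055 (without animal B) to 0.050 (without animal A) with 1 mouse left out and was above 0 without WT animal 5 (0.024) and without animals A and B (0.031). Nsun4, which methylates the small rRNA and partners Mterf4, had the lowest, at 15.4, 12.5, 17.1 and 15.5 CPM in WT and 12.6, 13.4, 14.4 and 14.3 CPM in Opa1+/- mice (log2 fold change -0.14, -0.38 to 0.095, with -0.077 without WT animal 6). Without WT animal 5 it was -0.22, with an unadjusted p of 0.0386. All Opa1+/- values lay between the lowest and the second lowest WT value. Mrm1, a methyltransferase of the large rRNA, had the highest log2 fold change of all members, 0.16 (-0.22 to 0.53), at 7.82, 7.13, 4.72 and 5.73 CPM in WT and 7.69, 6.77, 6.25 and 7.66 CPM in Opa1+/- mice. The highest and the lowest of these 8 values were both from WT mice. Its fold change was 0.042 without WT animal 6, 0.27 without WT animal 4 and 0.035 with the first surrogate variable as a covariate. Mrm2 and Mrm3 had log2 fold changes of -0.049 and 0.010.

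Summed over the 42 factors, the level was 950.2, 982.2, 957.6 and 963.3 CPM in WT and 927.4, 950.1, 936.2 and 945.8 CPM in Opa1+/- mice. The means were 963.3 ± 13.7 and 939.9 ± 10.2 CPM (SD, n = 4), a ratio of 0.976, and the highest Opa1+/- mouse lay just below the lowest WT mouse, at 950.1 against 950.2 CPM. As a share of the total counts, without TMM factors, the groups overlapped, at 0.0943% to 0.102% in WT and 0.0897% to 0.0947% in Opa1+/- mice. This sum weights abundant genes most. By single genes the mice were mixed. WT animals 4, 5, 6 and 8 held the highest of the 8 values for 8, 7, 8 and 3 members and the lowest for 5, 4, 6 and 3, and Opa1+/- animals 2, 7, A and B the highest for 6, 4, 0 and 6 and the lowest for 8, 4, 9 and 3. The biological coefficient of variation, the spread between mice of a genotype beyond counting error, had a median of 0.0982 over the members. It ran from 0.0753 to 0.281. Over all genes tested, which were not matched for level, the median was 0.126.

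**Figure D4:**
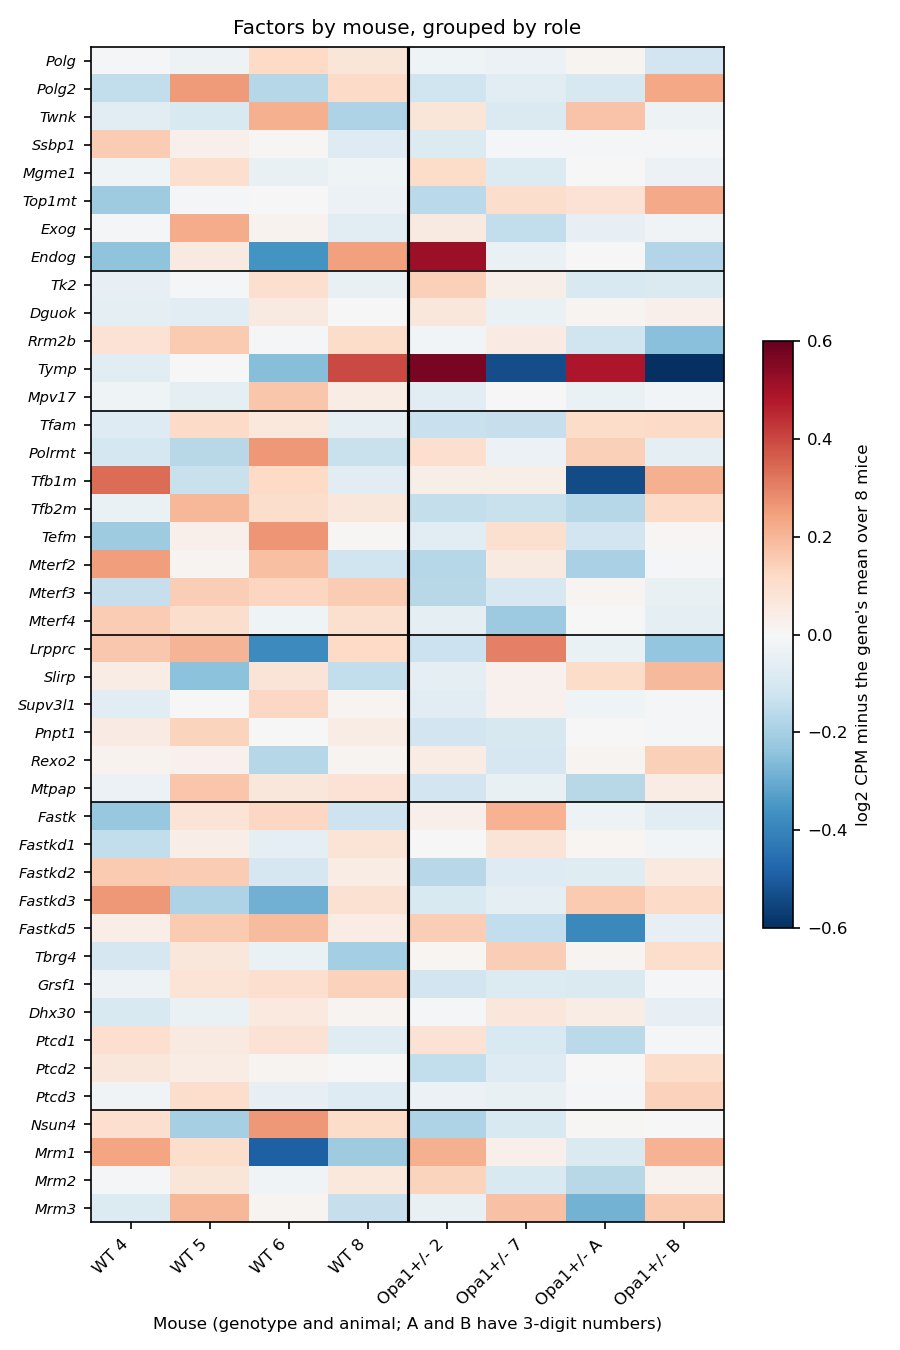
Deviation of each of the 42 factors in each of the 8 mice from the mean of that gene over all mice (log2 CPM, red above and blue below the mean, colours saturating at 0.6), with genes in rows grouped by role and the vertical line between WT and Opa1+/- mice. Strong colours, as for Tymp and Endog, differ between mice of the same genotype, and no role group has 1 colour in all Opa1+/- mice.

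The mitochondrial transcripts on which these factors act were set beside them on the same scale. The 21 mitochondrial tRNA entries tested had log2 fold changes between 0.69 and 2.11 with a median of 1.41. Of these, 4 passed the adjusted threshold of edgeR's quasi-likelihood test, against 0.0258% of all genes. The study, which used DESeq2, reported more of them as over-represented. All 21 had an unadjusted p under 0.05, and in 20 the groups did not overlap, against 6.72% and 4.31% of all genes. The 2 mitochondrial rRNAs had log2 fold changes of 0.29 and 0.43, both with an unadjusted p under 0.05 and neither past the adjusted threshold, and 1 of them had values that did not overlap between the groups. The 13 mitochondrial mRNAs had a median of 0.079, with none past the unadjusted threshold. The upper interval bound of each of the 42 factors, 0.67 at most, lay below the lowest tRNA fold change. That fold change is a point value of 0.69, and its own interval was not compared. The deposited levels are of RNA, and protein amounts or mtDNA copies were not analysed here.

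**Figure D5:**
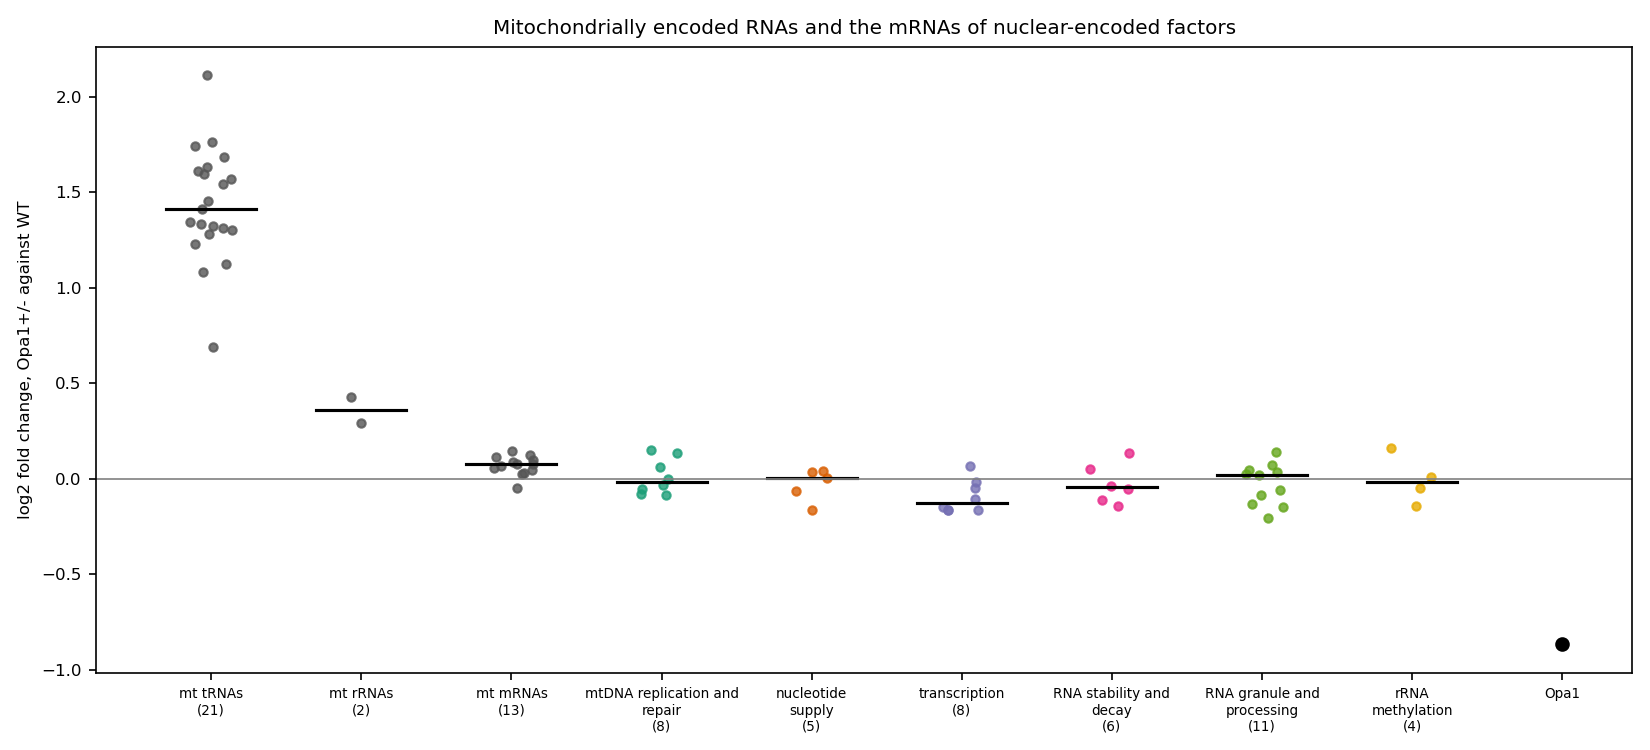
Log2 fold change of Opa1+/- against WT for single genes (points) with the median of each class (bars), for mitochondrial tRNAs, rRNAs and mRNAs, for the 6 role groups of the nuclear-encoded factors (number of genes in brackets) and for Opa1. The tRNAs lie between 0.69 and 2.11, whereas the 42 factors lie between -0.20 and 0.16.

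A list of 61 further genes of the same processes was examined in the same fit. None passed the adjusted threshold of edgeR's quasi-likelihood test, 3 had an unadjusted p under 0.05 (against 6.72% of all genes), and the log2 fold changes had a median of 0.046 with 37 above and 24 below 0. Slc25a36, a carrier that imports pyrimidine nucleotides into mitochondria, measured 63.6, 70.7, 68.5 and 69.4 CPM in WT and 58.9, 61.2, 59.4 and 55.3 CPM in Opa1+/- mice. Every Opa1+/- value lay below every WT value, as for 2.33% of all genes, and the log2 fold change was -0.21 (-0.34 to -0.086, unadjusted p of 0.00409 and adjusted p of 0.722 in edgeR's quasi-likelihood test). Lonp1, the matrix protease known to degrade TFAM, measured 46.3, 47.7, 51.2 and 49.4 CPM in WT and 56.6, 55.8, 55.0 and 49.1 CPM in Opa1+/- mice. Animal B lay within the WT range and the other 3 above it (log2 fold change 0.15, 0.015 to 0.29, adjusted p of 0.722). Atad3a, a membrane ATPase of mtDNA nucleoids, measured 26.5, 27.4, 26.0 and 23.7 CPM in WT and 30.7, 28.8, 28.8 and 26.9 CPM in Opa1+/- mice (0.15, 0.00016 to 0.30, adjusted p of 0.741), with only Opa1+/- animal B inside the WT range. The unadjusted p of Lonp1 exceeded 0.05 with total counts (0.136) and with no filter (0.0580). That of Atad3a exceeded it with total counts (0.120), DESeq2 size factors (0.0604), DESeq2's Wald test (0.0889), robust estimation (0.0559), no filter (0.0807) and the surrogate variable (0.0743). Leaving out 1 mouse moved it to between 0.00654 and 0.0865 for Lonp1 and between 0.0332 and 0.155 for Atad3a. Trmt10c, a subunit of the RNase P that cuts tRNAs from the precursors, was the only other gene of the list without overlap, at 15.414 to 17.1 CPM in WT and 14.2 to 15.410 CPM in Opa1+/- mice, with an unadjusted p of 0.0542. It was outside the rule for named genes and was chosen after its values were seen.

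Markers of the cell types that a whole cochlea can hold were followed in the same mice. Summed markers of hair cells (110 to 166 CPM), spiral ganglion neurons (5304 to 6533 CPM) and stria vascularis (913 to 1795 CPM) were present in every mouse, none of their markers was at 0, and the genotypes overlapped in each sum. Their median log2 fold changes were -0.037 (4 of 10 above 0), -0.027 (4 of 10) and -0.15 (1 of 9). Erythroid markers summed to 7746 to 21454 CPM in WT and 15062 to 25054 CPM in Opa1+/- mice, with 9 of 9 above 0 on the log2 fold change scale and a median of 0.56. Skeletal muscle markers summed to 274 to 2351 CPM in WT and 31.4 to 1200 CPM in Opa1+/- mice, with 10 of 10 below 0 and a median of -0.71. All 10 Schwann cell and myelin markers (median 0.20, 3481 to 4723 CPM in WT and 4156 to 5611 CPM in Opa1+/- mice) and all 11 proliferation markers (median 0.21, 189 to 429 and 306 to 367 CPM) were above 0. Bone markers summed to 1683 to 1984 and 1374 to 1991 CPM (median -0.062, 3 of 11 above 0), and neutrophil and marrow markers to 435 to 1429 and 458 to 1183 CPM (-0.0097, 5 of 10). None of the markers passed the adjusted threshold, none was at 0 in any mouse, and their part in the levels of the 42 factors was not tested.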

How the data were processed

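RNA of whole cochleae from 4 WT and 4 Opa1+/- mice was made into CORALL libraries and sequenced as paired reads. The authors used molecular identifiers against amplification bias, trimmed adapters, checked reads with FastQC and mapped them to GRCm38/mm10 with STAR (methods and submitters' processing notes). They deposited raw counts per gene symbol for each mouse, unnormalized and unfiltered. The methods name the CORALL Data Analysis Pipeline. The counting program within it and its use of strand are not given in the sources used here. Counts of overlapping genes and of genes with near-identical copies are therefore uncertain. The 15 entries named by a bare number were left out, and the other 47628 set the library sizes.

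The members and the lists of further genes and markers were chosen with earlier results of these data known. Older symbols were matched through the RefSeq gene table. Genes with a mean count over 10 after DESeq2 size factors were tested with edgeR 4.0.16 (TMM, glmQLFit without robust estimation, glmQLFTest, no covariate), with Benjamini-Hochberg adjustment over all 19366 and a threshold of 0.05. Intervals are at 95% from the same fit. P-values weigh the difference between the groups against the spread between 4 mice a group, moderated over all genes tested. The script was tested on simulated data. Lengths and overlaps came from GENCODE vM21, with the shortest principal transcript of each gene. Near-identical copies were sought at 95% identity or more. Named in full were Opa1, members with an unadjusted p under 0.05, those without overlap between groups, the lowest and highest fold change of each role group, the 3 highest and 3 lowest per length, and Polg, Twnk, Tfam, Polrmt, Lrpprc, Slirp, Supv3l1 and Pnpt1. Of the further genes, those with an unadjusted p under 0.05 were named.

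Alternatives were DESeq2 size factors, total counts, library sizes without mitochondrial genes, DESeq2 1.42.0, voom with quality weights (limma 3.58.1), robust estimation, 2 other filters, a threshold of 0.1, the first surrogate variable (sva 3.50.0), each mouse left out, and both Opa1+/- mice with 3-digit numbers (A and B) left out together. Smaller lists of members were added after seeing the data. R 4.3.3 and Python 3.11.15 were used. Columns of authors' comparisons were not part of the tables, and splice variants were not analysed here.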

Additional observations from a re-analysis of the deposited data

Results flagged for a closer look

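In 8 of 90 groups of 4 mice examined, 1 mouse lay far from the other 3 by Dixon's test at its 95% level, which chance alone does in about 1 in 20 groups. Among WT mice, animal 6 was such a mouse for 3 factors. It had the highest level of Polrmt, 21.7 CPM against 16.2 to 16.8 in the other 3, and the lowest of Lrpprc, 60.6 CPM against 86.0 to 90.9, and of Rexo2, 56.4 CPM against 64.2 to 64.7. WT animal 6 also had the largest sum of skeletal muscle markers, 2351 CPM, whose part in these values was not tested. WT animal 5 was highest for Mgme1, 9.03 CPM against 8.19 to 8.28, and WT animal 4 lowest for Mterf3, 14.1 CPM against 17.0 to 17.3. Among Opa1+/- mice, animal B was highest for Polg2, 5.04 CPM against 3.96 to 4.11, and for Tfb2m, 30.7 CPM against 25.1 to 25.8. Animal 2 was lowest for Ssbp1, 19.9 CPM against 20.86 to 20.90.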

How the results depend on the processing

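No member passed the adjusted threshold under any of the 19 alternatives, at the threshold of 0.1 included. With DESeq2's Wald test 0 members passed the adjusted and 1 the unadjusted threshold, while 25 genes (0.129%) passed the adjusted one in all. The number of members with an unadjusted p under 0.05, 1 in the analysis reported, was 2 with DESeq2 size factors (Rrm2b and Grsf1), 2 with total counts (Tfb2m and Grsf1), 2 with the first surrogate variable (Fastkd2 and Grsf1) and 4 with voom (Rrm2b, Tfb2m, Mtpap and Grsf1). With 1 mouse left out it ranged from 0 (without WT animal 8 or Opa1+/- animal A) to 3 (without WT animal 4). It was 2 without WT animal 6 and without Opa1+/- animal B. In single settings other members took the place of Grsf1, namely Nsun4 without WT animal 5, Fastkd5 without Opa1+/- animal 2, Rrm2b without animal 7 and Tfb2m without animals A and B. The cause was not tested. The median log2 fold change of the 42 members kept its sign, from -0.070 with total counts, where the median of all genes was -0.028, to -0.014 without WT animal 5, where it moved by more than the spread between mice of 0.028. With 1 mouse left out it ranged from -0.058 to -0.014. It was -0.049 over the 39 members listed under their own symbol and -0.037 over 35 without those overlapped by more than 20% and without Tfb2m with its pseudogene, in which Rrm2b and Ssbp1 were kept.

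Of 450 fits of named genes under alternatives, none passed the threshold and 434 kept their direction. The log2 fold change turned for Tymp with voom (-0.017) and without WT animal 6 (-0.047), Opa1+/- animal 2 (-0.17) or A (-0.12), with -0.17 to 0.20 over the single mice left out. It turned for Fastkd3 with the surrogate variable (-0.019), without WT animal 5 (-0.0072) or 6 (-0.033), and without both animals A and B (-0.063), with -0.033 to 0.15 over single mice. Tfam turned without WT animal 5 (0.018) and Opa1+/- animal 2 (0.023) or 7 (0.024), with -0.065 to 0.024 over single mice and -0.15 without both animals A and B, and Lrpprc without WT animal 5 (0.0016), Opa1+/- animal B (0.0086) and both animals A and B (0.058), with -0.18 to 0.0086 over single mice. Endog turned without Opa1+/- animal 2 (-0.016, against 0.26 without WT animal 8 and 0.31 without both animals A and B) and Rexo2 without both animals A and B (-0.0018). Opa1 was between -0.91 and -0.83 and passed in 16 of 18 alternatives, with an adjusted p of 0.0704 without Opa1+/- animal 2 and of 0.260 without both animals A and B (edgeR's quasi-likelihood test). No paired analysis was possible because the labels do not give the litter of each mouse. At 64 to 1942 counts per gene and mouse, with 4 mice a group, differences inside the intervals given for each gene were not detectable.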

Other observations

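Enzymes that supply deoxynucleotides to dividing cells varied among the WT mice more than among the Opa1+/- mice, with an SD of 5.84 against 0.671 CPM for Rrm2 and of 2.64 against 0.444 CPM for Tk1, a difference that was not tested. Rrm2, the ribonucleotide reductase subunit of dividing cells, measured 18.1, 10.7, 6.63 and 4.99 CPM in WT and 13.4, 14.2, 12.8 and 12.8 CPM in Opa1+/- mice. Tk1, the cytosolic thymidine kinase, measured 8.16, 4.49, 2.93 and 2.25 CPM in WT and 5.08, 6.02, 5.88 and 5.9995 CPM in Opa1+/- mice. For both genes WT animal 4 was the highest of all 8 mice and the other 3 WT mice lay below every Opa1+/- mouse. The log2 fold changes were 0.40 (95% interval -0.34 to 1.15) for Rrm2 and 0.37 (-0.40 to 1.14) for Tk1. The summed proliferation markers were 429 CPM in WT animal 4, 189 to 301 CPM in the other WT mice and 306 to 367 CPM in Opa1+/- mice, and their part in these values was not tested. In the same mice Rrm2b, the subunit of cells that do not divide, was not highest in WT animal 4. Both genes were chosen after their values were seen.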
